A study of Homo sapiens with 6 samples.

Results

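Fibroblast growth factor 2 (FGF2) is made as a short 18 kDa form and longer forms from the same mRNA, and several cytoplasmic and nuclear proteins are reported to bind it or carry it into the nucleus. The genes of 8 proteins listed as such were followed: API5, FIBP, CEP57, CSNK2A1, CSNK2B, UBTF, RPS6KA3 and KPNB1. Of these, FIBP is described below by its binding to FGF1 and KPNB1 as a general import carrier. The 8 genes were found by their Entrez gene identifiers among the 23459 genes of the count table. All 8 had an entry, and 7 passed the filter on low counts, which kept 13124 genes. RPS6KA3 did not pass. The table describes mRNA, so it holds no measure of where FGF2 protein was or what it bound.

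The cells were T47D-YA, T47D luminal breast cancer cells engineered to carry progesterone receptor isoform A. Bulk mRNA was sequenced from 6 libraries, 2 with an empty vector (MOCK), 2 overexpressing the 18 kDa isoform and 2 overexpressing the 22.5 kDa isoform. All 3 groups share the T47D-YA background. The labels do not give the vector, the promoter that drives FGF2, whether each line is a clone, or whether libraries of a group came from separate cultures. The p-values therefore measure only the spread between these libraries.

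In textbook accounts, the longer FGF2 forms carry an arginine-rich extension that sends them to the nucleus, while the 18 kDa form is secreted and can be taken back up from outside the cell. CEP57 (also called translokin) binds internalised 18 kDa FGF2 and helps move it along microtubules. FIBP was found as an intracellular partner of the related FGF1, and KPNB1 (importin beta) is the general carrier of nuclear import. Inside the nucleus, API5 binds FGF2 and is known as an inhibitor of apoptosis. CK2, a kinase of 2 catalytic and 2 regulatory subunits, binds FGF2, as do UBTF, which activates ribosomal RNA genes, and RPS6KA3 (RSK2), a kinase downstream of ERK.

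Counted totals ranged from 5317687 to 6817324 per library. Values below are counts, or CPM (each library's counts relative to its total) scaled by trimmed mean of M values (TMM). FGF2 itself, the check of the labels, had 12 and 13 counts with the empty vector, 6259 and 4365 with the 18 kDa isoform, and 8731 and 7758 with the 22.5 kDa isoform. FGF2 therefore rose in both lines, by 8.55 ± 0.355 (log2, SE) and 9.29 ± 0.362, but counts per gene cannot tell an introduced FGF2 from the cell's own gene, nor 1 isoform from the other. The 9 luminal markers summed to 15610 and 20470 CPM with the empty vector, 22750 and 19190 with the 18 kDa isoform, and 12300 and 15200 with the 22.5 kDa isoform. Of these markers ESR1 and PGR fell in both lines, and the other 7 did not pass the test. PGR fell from 215 ± 18.6 CPM (SD, n = 2) to 22.9 ± 12.4 and 23.6 ± 0.511. Counts per gene cannot tell an introduced progesterone receptor A from the cell's own PGR, so these counts do not show which transcript fell. EPCAM was at 123 ± 25.1, 241 ± 64.5 and 210.1 ± 85.6 CPM (adjusted p = 0.0537 and 0.114). Fibroblast markers (6 genes) summed to 39.5 to 56.7 CPM, endothelial markers (5 genes, TEK at 0) to 2.60 to 5.90, and leukocyte markers (5 genes, CD3E at 0) to 7.33 to 16.0. In bulk samples, fewer cells with a transcript and less of it per cell cannot be told apart.

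No member passed the test in any comparison. By edgeR's quasi-likelihood test with Benjamini-Hochberg adjustment over all tested genes (threshold 0.05), 0 of 7 tested members were called with the 18 kDa isoform, against 8.88% of all tested genes. With the 22.5 kDa isoform 0 of 7 were called, against 10.9% of all genes, and between the isoforms 0 of 7, against 1.58%. DESeq2 called 0 members in the 3 comparisons as well. At an unadjusted p under 0.05 there were 1 member (FIBP) with the 18 kDa isoform, 2 (FIBP and CSNK2A1) with the 22.5 kDa isoform and 0 between isoforms, where all genes gave 20.2%, 23.4% and 11.9%. Both comparisons with the empty vector use the same 2 control libraries and are given side by side only.

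**Figure D1:**
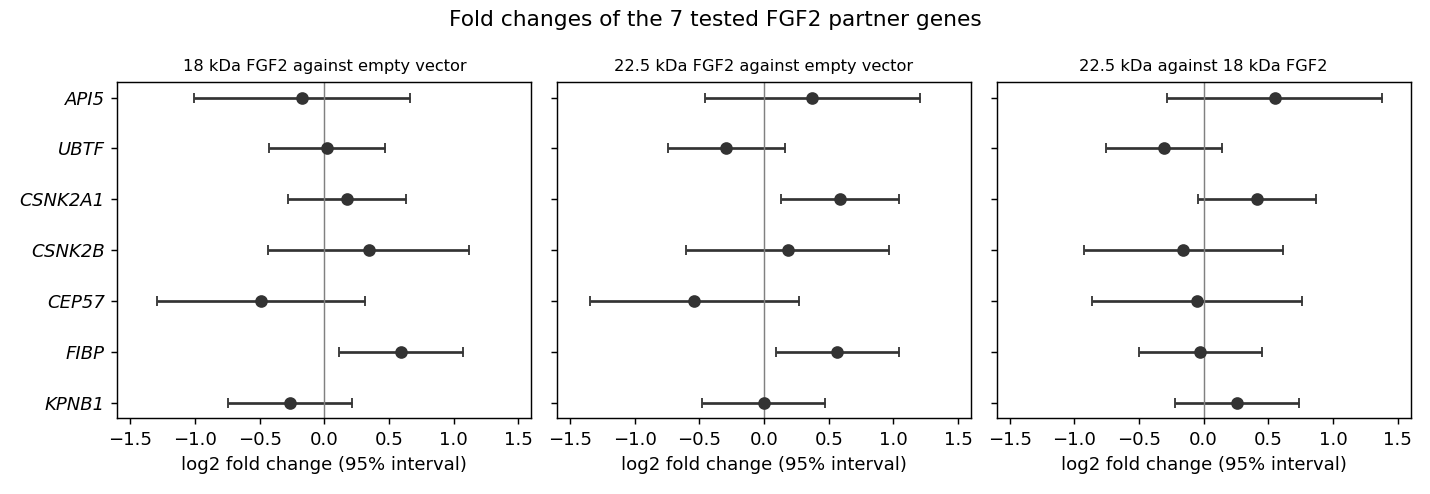
Log2 fold change of each tested member in the 3 comparisons, with bars for the 95% interval without adjustment for multiple tests. The intervals for FIBP lie above 0 with each isoform against the empty vector, and that for CSNK2A1 with the 22.5 kDa isoform. All other intervals include 0.

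The members' differences were similar in size to those of all genes. Their median absolute log2 difference was 0.26 with the 18 kDa isoform, 0.38 with the 22.5 kDa isoform and 0.26 between isoforms, beside 0.33, 0.33 and 0.28 over all tested genes. Replicates of the 2 groups did not overlap for 3 of 7 members with the 18 kDa isoform (FIBP and CSNK2B higher, KPNB1 lower), and 52% of all tested genes were also apart. For the 22.5 kDa isoform it was 4 of 7 (API5, FIBP and CSNK2A1 higher, UBTF lower), beside 52.9% of all genes. Between isoforms it was 2 of 7 (CSNK2A1 higher and UBTF lower with 22.5 kDa), beside 38.1%. With 2 libraries a group, groups that do not overlap are therefore common in this table.

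**Figure D2:**
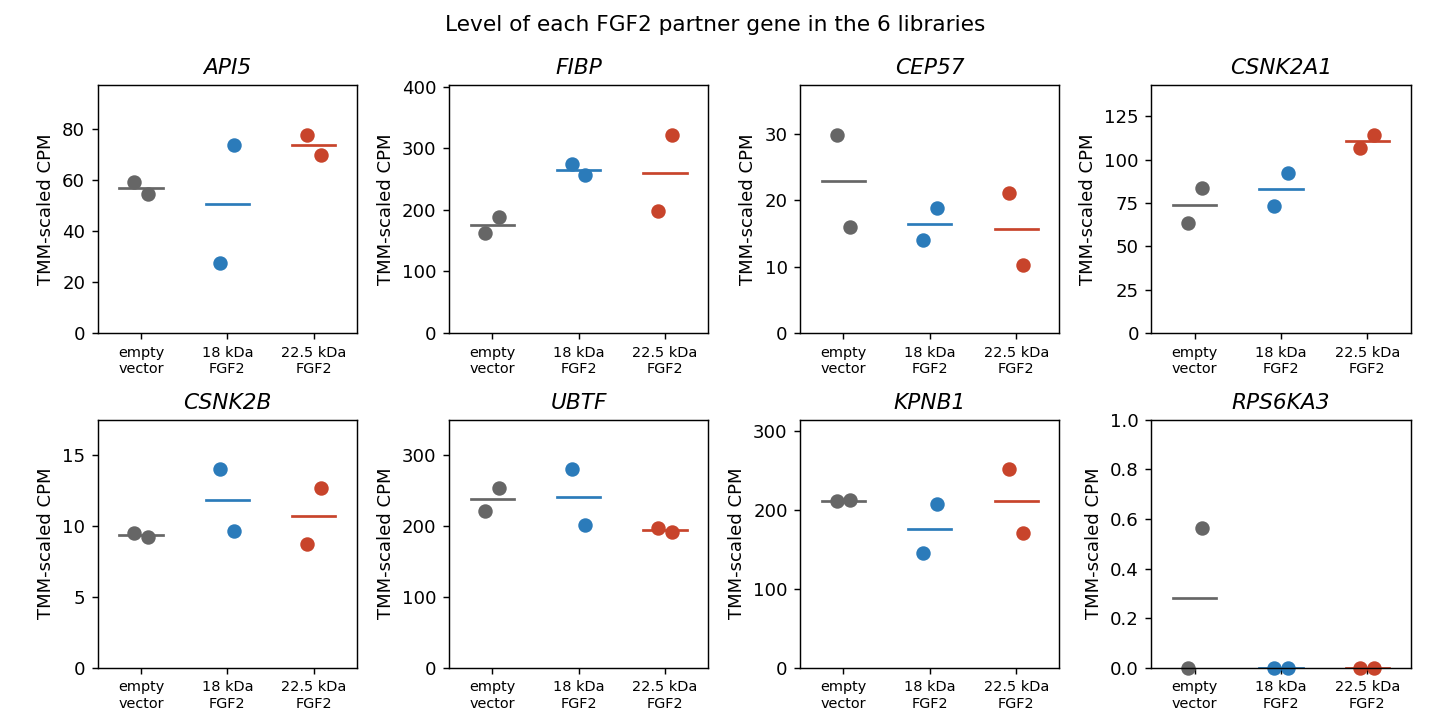
Level of each member (TMM-scaled CPM, an axis of its own for each gene, from 0) in the 6 libraries by group, with points for libraries and lines for group means. API5 spreads widest with the 18 kDa isoform, 27.3 and 73.6 CPM, both 22.5 kDa points of CSNK2A1 lie above all others, and RPS6KA3 is above 0 only in empty vector replicate 2.

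Per kilobase of exon, the mean levels ordered the members as FIBP (181 CPM per kb), UBTF (38.3), KPNB1 (30.0), API5 (14.9), CSNK2B (7.56), CSNK2A1 (5.82) and CEP57 (4.04). RPS6KA3 was last at 0.0103. The median tested gene had 6.96 CPM per kb. FIBP was at percentile 97.0 of tested genes, while CSNK2B, CSNK2A1 and CEP57 lay at percentiles 51.8, 46.4 and 38.8. The exon lengths behind this scale cover the exons of a gene's transcripts in GENCODE's basic set. At 15309 bases that of CSNK2A1 was the longest of the members, which lowers its value per kilobase.

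Promoters of 3 members are shown because FIBP and CSNK2A1 were the members with unadjusted p under 0.05 and because the regulatory CK2 subunit CSNK2B shares a motif with them. The ETS-type motif CCGGAAG, searched on both strands, lay in the 250 bases before the start of FIBP, CSNK2A1 and CSNK2B. The RefSeq table (GRCh38.p14) held 10 such windows for 7 of the members, of which 3 had the motif, beside 8.52% of all 35116 windows there. Capitals mark CCGGAAG or its reverse complement CTTCCGG. The windows are chr11:65888472-65888721 (minus strand) for FIBP, chr20:543791-544040 (minus strand) for CSNK2A1 and chr6:31665830-31666079 (plus strand) for CSNK2B.
FIBP: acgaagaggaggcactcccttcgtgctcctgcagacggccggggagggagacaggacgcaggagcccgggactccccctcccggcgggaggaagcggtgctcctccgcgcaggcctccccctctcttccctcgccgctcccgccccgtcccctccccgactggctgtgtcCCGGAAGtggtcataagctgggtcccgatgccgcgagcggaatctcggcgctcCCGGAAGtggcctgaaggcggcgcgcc
CSNK2A1: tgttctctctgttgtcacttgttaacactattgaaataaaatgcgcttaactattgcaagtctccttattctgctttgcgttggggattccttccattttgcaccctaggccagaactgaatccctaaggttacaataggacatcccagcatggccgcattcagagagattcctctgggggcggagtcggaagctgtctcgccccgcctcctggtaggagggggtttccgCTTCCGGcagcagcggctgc
CSNK2B: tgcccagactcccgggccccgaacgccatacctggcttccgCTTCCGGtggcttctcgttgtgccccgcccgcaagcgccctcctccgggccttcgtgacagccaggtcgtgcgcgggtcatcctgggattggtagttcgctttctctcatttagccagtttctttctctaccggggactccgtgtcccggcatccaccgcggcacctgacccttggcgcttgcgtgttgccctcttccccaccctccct
FIBP held the motif at 2 places, the CK2 genes at 1 place each. Other motifs were spread differently: the cyclic AMP response element TGACGTCA occurred in 1 of the 10 windows, of CEP57 (1.65% of all windows), CCAAT in 4 (of API5, CEP57 and CSNK2B, beside 32.0%), and the GC box GGGCGG in 8, at least 1 in each of the 7 members (beside 42.6%). The 2 UBTF promoters held the GC box 7 and 3 times. CSNK2B was shown for its motif, so its sharing the motif is no separate result. The windows that give the shares were not matched to the members for level or base composition. A match describes letters only, and no factor's binding was measured.

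Transport of FGF2 began with CEP57, the carrier of internalised FGF2. CEP57 had 29.9 and 15.9 CPM with the empty vector, 14.0 and 18.8 with the 18 kDa isoform, and 21.1 and 10.2 with the 22.5 kDa isoform. Empty vector replicate 1 was the highest library and 22.5 kDa replicate 2 the lowest, and all groups overlapped. The counts were low, 51 to 167 per library, and the 22.5 kDa replicates differed 2.06-fold. The log2 fold change was -0.49 ± 0.383 (SE; 95% interval -1.29 to 0.32, adjusted p = 0.535) with the 18 kDa isoform and -0.54 ± 0.384 (-1.35 to 0.27, adjusted p = 0.449) with the 22.5 kDa isoform. Between the isoforms it was -0.05 (-0.86 to 0.76), so that differences of nearly a doubling in either direction lie inside the interval.

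FIBP, the FGF1 partner, was the most abundant member per kilobase. Its levels were 162 and 189 CPM with the empty vector, 274 and 256 with the 18 kDa isoform, and 198 and 322 with the 22.5 kDa isoform. All 4 FGF2 libraries were above both empty vector libraries, by a narrow margin for 22.5 kDa replicate 1. FIBP was 0.59 ± 0.232 higher (log2, SE) with the 18 kDa isoform (0.12 to 1.07, adjusted p = 0.125) and 0.57 ± 0.232 higher with the 22.5 kDa isoform (0.09 to 1.05, adjusted p = 0.128). Neither passed after adjustment. The levels with each isoform differed by -0.03 (22.5 kDa minus 18 kDa, -0.50 to 0.45). FIBP passed in 6 of 16 alternative fits with the 18 kDa isoform (adjusted p 0.0125 to 0.662 over all 16). Those 6 included the fits without 22.5 kDa replicate 1 and without 22.5 kDa replicate 2. They also included a crossed replicate block (18 kDa replicate numbers swapped) and the fit leaving both first FGF2 libraries out. Both of these settings were chosen after seeing the data. Without 22.5 kDa replicate 1, FIBP also passed with the 22.5 kDa isoform (0.87, adjusted p = 0.0263; 4.32e-05 to 0.624 over its 16 alternatives). FIBP overlaps CTSW in RefSeq, and whether reads were counted by strand is not stated.

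KPNB1, the import carrier, had 211 and 213 CPM with the empty vector, 145 and 208 with the 18 kDa isoform, and 252 and 171 with the 22.5 kDa isoform. The control libraries were nearly equal, the 22.5 kDa libraries lay on either side of them, and both 18 kDa libraries were lower, the second by little. The log2 fold change was -0.26 ± 0.232 (-0.74 to 0.21, adjusted p = 0.582) with the 18 kDa isoform, and with the 22.5 kDa isoform the interval was -0.48 to 0.48 (adjusted p = 0.996). KPNB1 between the isoforms gave 0.26 (-0.22 to 0.74).

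Among the nuclear partners, API5 varied the most between replicates. It had 59.0 and 54.6 CPM with the empty vector, 27.3 and 73.6 with the 18 kDa isoform, and 77.7 and 69.6 with the 22.5 kDa isoform. The 18 kDa replicates were 2.70-fold apart and lay on either side of the controls, while both 22.5 kDa libraries were above the controls. API5 gave -0.18 ± 0.374 (-1.01 to 0.66, adjusted p = 0.849), 0.38 ± 0.371 (-0.46 to 1.21, adjusted p = 0.628) and, between the isoforms, 0.55 ± 0.372 (-0.28 to 1.38, adjusted p = 0.618). The value depended on which 18 kDa library was kept. Without 18 kDa replicate 2, API5 was at -1.01 with the 18 kDa isoform (adjusted p = 0.0153) and 1.37 higher with 22.5 kDa than with 18 kDa (adjusted p = 0.00196); without 18 kDa replicate 1 the 2 values were 0.40 and -0.0024, neither of which passed. The difference between isoforms also passed with all 6 libraries under the crossed replicate block (0.0451). That block was chosen after seeing the data and is no independent check. Over all 16 alternatives the adjusted p ranged from 0.0153 to 0.964 and from 0.00196 to 1.0.

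Base composition moved with the library in which API5 was low. By the median over a gene's GENCODE transcripts, API5 has 41.3% GC, CEP57 41.2%, CSNK2A1 44.4%, KPNB1 47%, CSNK2B 52.1%, UBTF 55.3% and FIBP 58.7%. The median over tested genes was 51.0%. Across genes, the level in a library relative to the mean of all libraries had a slope of 0.291 (log2 per 10 percentage points of GC) in 18 kDa replicate 1 and of -0.288 in 22.5 kDa replicate 1. The slopes of the other 4 libraries lay between -0.0749 and 0.0751. In 18 kDa replicate 1, API5 and KPNB1 had their lowest levels and FIBP and UBTF were high. CEP57, with nearly the GC content of API5, was lowest in 22.5 kDa replicate 2, and CSNK2A1 in empty vector replicate 1. With the GC trend removed, API5 was at -0.09 ± 0.221 with the 18 kDa isoform (adjusted p = 0.834). With the GC trend removed, FIBP passed with the 22.5 kDa isoform (0.63, adjusted p = 0.0228) and was at adjusted p = 0.0505 with the 18 kDa isoform. The part of base composition in the single values was not tested.

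CK2 is built from catalytic subunits, encoded by CSNK2A1 and CSNK2A2, and the regulatory subunit encoded by CSNK2B. CSNK2A1 had 63.3 and 83.9 CPM with the empty vector, 73.5 and 92.6 with the 18 kDa isoform, and 107 and 114 with the 22.5 kDa isoform. The 22.5 kDa libraries were above all 4 others, and the 18 kDa libraries overlapped the controls. CSNK2A1 had the smallest p of any member: 0.59 ± 0.222 with the 22.5 kDa isoform (0.13 to 1.04, adjusted p = 0.0951). The values were 0.17 ± 0.222 (-0.28 to 0.63, adjusted p = 0.720) with the 18 kDa isoform and 0.41 ± 0.220 (-0.04 to 0.87, adjusted p = 0.470) between the isoforms. CSNK2A1 passed with the 22.5 kDa isoform in 4 of 16 alternative fits (log2 0.40 to 0.81 over all 16). Among them were those with only the 2 groups compared (adjusted p = 0.0498) and without 18 kDa replicate 1. The others were the crossed replicate block and the fit leaving both first FGF2 libraries out, chosen after seeing the data.

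A near-identical copy of this gene complicates its count. CSNK2A3, singled out after its values were seen, is a CSNK2A1-like gene whose reads the authors' counting could have split with CSNK2A1. CSNK2A3 had 219, 251, 308, 376, 416 and 343 counts in the libraries ordered as empty vector, 18 kDa and 22.5 kDa, or 0.562 to 0.713 counts for each CSNK2A1 count. With CSNK2A3 counts added, CSNK2A1 was at 0.26 (adjusted p = 0.565) with the 18 kDa isoform and 0.60 ± 0.219 (adjusted p = 0.0823) with the 22.5 kDa isoform, by edgeR's quasi-likelihood test.

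CSNK2A2, the other catalytic subunit, went the other way in value. It had 663 and 740 counts with the empty vector, 649 and 603 with the 18 kDa isoform, and 616 and 478 with the 22.5 kDa isoform, and its log2 fold changes of -0.32 (adjusted p = 0.423) and -0.44 (adjusted p = 0.204) did not pass. With the GC trend removed the second did (-0.55, adjusted p = 0.0381, and 0.0368 with the replicate block). The ratio of CSNK2A1 to CSNK2A2 counts, a measure chosen after the values were seen and given without a test, was 0.534 and 0.604 with the empty vector. It was 0.738 and 0.874 with the 18 kDa isoform, and 1.14 and 1.20 with the 22.5 kDa isoform. The 6 ratios thus did not overlap between any 2 groups. Counting error alone gave 95% intervals of 0.468 to 0.608 in empty vector replicate 1 and 1.06 to 1.35 in 22.5 kDa replicate 2. The intervals of empty vector replicate 2 (0.536 to 0.680) and 18 kDa replicate 1 (0.6545 to 0.832) overlapped. The share of other gene pairs with ratios that keep apart was not worked out. With CSNK2A3 counts added the ratios were 0.864 and 0.943, 1.21 and 1.5, and 1.81 and 1.91, in the same order of groups. A ratio within a library shows unequal levels of the 2 genes and does not say which of them differed.

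CSNK2B was counted far less than its catalytic partners. CSNK2B had 53 and 49 counts with the empty vector, 91 and 55 with the 18 kDa isoform, and 57 and 63 with the 22.5 kDa isoform, or 9.48 and 9.19, 14.0 and 9.66, and 8.70 and 12.6 CPM. Only 18 kDa replicate 1 and 22.5 kDa replicate 2 stood above 10 CPM. CSNK2B gave 0.34 ± 0.378 (-0.44 to 1.12, adjusted p = 0.676) and 0.18 ± 0.381 (-0.60 to 0.97, adjusted p = 0.843) with the isoforms, and -0.16 (-0.93 to 0.61) between them. CSNK2B lies on chromosome 6 between HLA-F and BRD2, where the 58 tested genes had a median of 1.98 CPM per kb, beside 4.09 for the other 532 tested genes of that chromosome. CSNK2B, at 7.56 CPM per kb, was above both medians. By mean CPM, not divided by exon length, 16 of the 58 were above it. BAG6, PRRC2A and CLIC1, named after their values were seen, had 12.1, 21.4 and 3.42 CPM there. How the authors' alignment treated this stretch is not stated. The level of CSNK2B is therefore uncertain, and the gene also overlaps GPANK1 and LY6G5B in RefSeq.

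**Figure D3:**
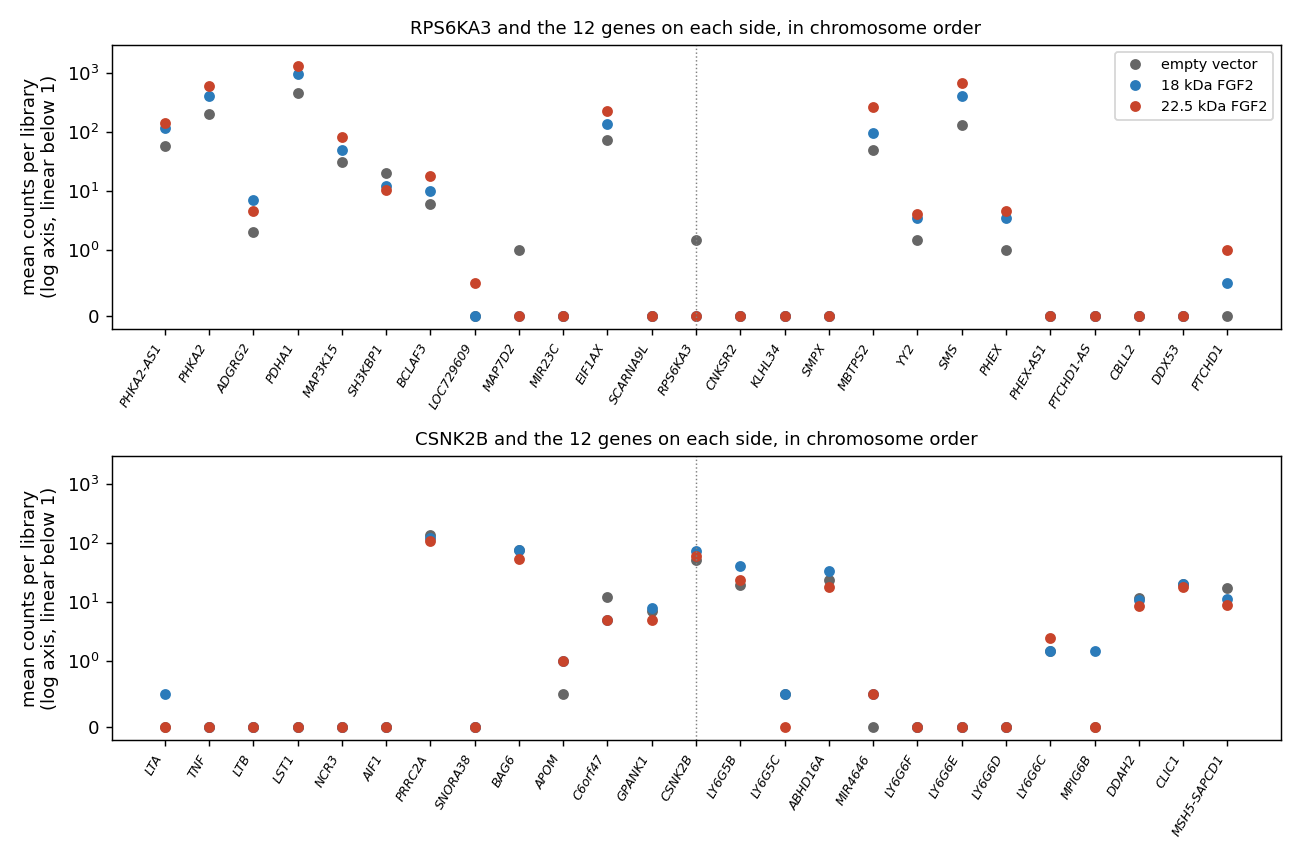
Mean counts per library of each group (log axis, linear below 1) for RPS6KA3, CSNK2B and the 12 genes on each side of them in chromosome order; where groups coincide, the last colour drawn covers the others. The nearest gene on each side of RPS6KA3 is at 0 while EIF1AX, MBTPS2, PDHA1 and SMS are counted in all 6 libraries, and many genes beside CSNK2B have few or no counts.

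UBTF, the activator of RNA polymerase I, was well counted, at 954 to 1823 counts per library. It had 222 and 253 CPM with the empty vector, 280 and 201 with the 18 kDa isoform, and 197 and 191 with the 22.5 kDa isoform. Both 22.5 kDa libraries were the lowest of all 6, and 18 kDa replicate 1 was the highest. The log2 fold changes of UBTF were 0.02 ± 0.218 (-0.43 to 0.47, adjusted p = 0.975), -0.29 ± 0.218 (-0.74 to 0.16, adjusted p = 0.476) and, between isoforms, -0.31 ± 0.218 (-0.76 to 0.14, adjusted p = 0.618). UBTF overlaps ATXN7L3-AS1 in RefSeq, with the same limit on strand as for FIBP.

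RPS6KA3 was listed with 3 counts in all, each in empty vector replicate 2 (0.563 CPM), and 0 in the other 5 libraries. A count of 0 allows up to 3 counts, which is 0.458 to 0.601 CPM over the libraries, so no fold is given. This limit covers counting error only. RPS6KA3 is widely expressed, its exons add up to 9087 bases, and its transcripts have a median of 40.0% GC. Neighbours on chromosome X were counted, among them EIF1AX with 84, 61, 112, 157, 317 and 132 counts and SMS with 112, 154, 400, 404, 733 and 600, both named after their values were seen. The table cannot tell an RPS6KA3 mRNA that is low in these cells from reads lost in counting.

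Other RSK and MSK kinases were measured. Of this list with its activators (9 genes, 6 measured), RPS6KA5 (MSK1, which phosphorylates histone H3 and CREB) rose with both isoforms and RPS6KA1 (RSK1) fell with the 22.5 kDa isoform, 1 and 2 of 6 beside 8.88% and 10.9% of all genes. RPS6KA5 had 21 and 16 counts with the empty vector, 47 and 76 with the 18 kDa isoform and 86 and 41 with the 22.5 kDa isoform, all FGF2 libraries being above the controls. Its log2 fold change was 1.59 ± 0.446 (adjusted p = 0.0230) and 1.66 ± 0.446 (adjusted p = 0.0147), and neither differed between isoforms past the threshold. With the 18 kDa isoform RPS6KA5 missed it without empty vector replicate 1 (0.0889), without the other control (0.181), without 18 kDa replicate 2 (0.141) and without 22.5 kDa replicate 2 (0.0505). With the 22.5 kDa isoform it missed without either empty vector replicate (0.0613 and 0.133) or either 22.5 kDa replicate (0.187 and 0.0536). Scaling by library totals also ended both calls (0.113 and 0.0778), as did the fit of only the 2 groups with the 18 kDa isoform (0.0549). RPS6KA1 was at 119 ± 7.33 CPM (SD, n = 2) with the empty vector, 78.6 ± 13.5 with the 18 kDa isoform and 73.2 ± 9.83 with the 22.5 kDa isoform. Its values were -0.60 (adjusted p = 0.0915) and -0.71 ± 0.218 (adjusted p = 0.0361), the second lost without any 1 of the 4 libraries compared (0.299 and 0.161 for the controls, 0.206 and 0.0834 for 22.5 kDa). With the 18 kDa isoform RPS6KA1 passed in 4 of 16 alternatives (-0.78 to -0.39 over all 16), among them with the GC trend removed (adjusted p = 0.0166). The 4 also included the crossed replicate block and the fit leaving both first FGF2 libraries out, chosen after seeing the data. RPS6KA4 and MAPK3, the best counted of the list, had 149 and 136 CPM in the controls and did not pass. Medians of the list were 0.06 and -0.04, beside -0.05 and 0.01 over all genes.

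RNA polymerase I genes are the setting of UBTF. Of 16 measured, POLR1A, the largest subunit of the enzyme, rose with both isoforms, and POLR1B, the second largest, rose with the 22.5 kDa isoform. None passed as lower. POLR1F, named after its values were seen, was at -1.32 with the 18 kDa isoform (adjusted p = 0.0861). The 1 and 2 of 16 that passed stand beside 8.88% and 10.9% of all genes. POLR1A had 126 and 151 counts with the empty vector, 468 and 300 with the 18 kDa isoform, and 400 and 277 with the 22.5 kDa isoform, a clear gap between controls and both lines. It rose by 1.29 ± 0.247 (adjusted p = 0.000903) and 1.20 ± 0.248 (adjusted p = 0.00164), the latter missing the threshold without empty vector replicate 1 (0.0641). POLR1B was at 37.1 ± 12.8, 62.2 ± 12.9 and 88.1 ± 11 CPM, or 0.75 (adjusted p = 0.0735) and 1.25 ± 0.254 (adjusted p = 0.00172), the latter lost without empty vector replicate 1 (0.0928). With the 18 kDa isoform POLR1B passed in 8 of 16 alternatives (log2 0.43 to 1.15 over all 16). Among them were no filter on low counts (adjusted p = 0.0246), the GC trend removed (0.0140), and leaving out empty vector replicate 2 or 18 kDa replicate 1. The 8 also included the crossed replicate block and the fit leaving both first FGF2 libraries out, chosen after seeing the data. TAF1C, like UBTF, did not pass. Both POLR1 genes lie on chromosome 2, and the list's medians, -0.09 and 0.02, were close to those of all genes.

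Of 31 transport receptors and Ran genes around KPNB1, 29 were measured, with medians of -0.02 with the 18 kDa and 0.19 with the 22.5 kDa isoform, and 1 fell with each isoform against the empty vector, beside 8.88% and 10.9% of all genes called. KPNA2, an importin alpha that hands cargo to KPNB1, fell with the 18 kDa isoform from 407 ± 77.9 to 246 ± 9.46 CPM (SD, n = 2; log2 -0.73 ± 0.218, adjusted p = 0.0350), and was at -0.48 (adjusted p = 0.175) with the 22.5 kDa isoform. The KPNA2 call was lost without either empty vector replicate (0.0838 and 0.510) or either 18 kDa replicate (0.124 and 0.140), and with the GC trend removed (0.0585), under which KPNA2 passed with the 22.5 kDa isoform (-0.60, adjusted p = 0.0444). TNPO2, a transportin, fell with the 22.5 kDa isoform from 268 ± 4.58 to 148 ± 11 CPM (-0.86 ± 0.211, adjusted p = 0.00763), and missed the threshold without either control (0.0822 and 0.105) or 22.5 kDa replicate 1 (0.0603). RAN and RANGAP1, the best counted, did not pass. Of 28 pore genes only NUP210 passed, beside 10.9% of all genes, lower with the 22.5 kDa isoform (458 ± 27.5 to 277 ± 1.67 CPM, -0.73 ± 0.229, adjusted p = 0.0401), and not without any 1 of the 4 libraries compared (0.140 to 0.299). AAAS did not pass, and the medians of the pore genes were -0.18 and 0.18.

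The nearest genes to CEP57 and FIBP by role were the 12 of intracellular FGF translocation. KIF3B, a kinesin motor subunit, fell with the 18 kDa isoform from 95.9 ± 0.545 to 55.8 ± 4.28 CPM (-0.78 ± 0.230, adjusted p = 0.0322) and was at -0.46 (adjusted p = 0.228) with the 22.5 kDa isoform. Its call was lost without either empty vector replicate (0.182 and 0.185) or 18 kDa replicate 1 (0.152), and by library totals (0.0965), while with the GC trend removed KIF3B also passed with the 22.5 kDa isoform (-0.56, adjusted p = 0.0435). The list's medians were -0.24 and -0.12. HSP90AB1 and HSP90AA1, chaperones and the best counted of these, did not pass. None of 18 genes of the API5, Acinus and TREX mRNA export list passed, ALYREF and DDX39A included, with medians of -0.05 and -0.03. None of 4 secretion genes passed, GPC1 included. Medians of the secretion genes were 0.20 and 0.16. None of 7 other reported binders and modifiers passed, with NCL and RPS19 the best counted, and medians of -0.07 and 0.09. None of 3 CK2 subunits passed, with medians of 0.17 and 0.18. Over all 9 lists, 2 genes rose and 2 fell of 123 measured with the 18 kDa isoform (3.25%, beside 8.88% of all tested genes), and 3 rose and 3 fell with the 22.5 kDa isoform (4.88%, beside 10.9%). Between the isoforms 0 passed, beside 1.58%. In the main fit the lists were thus called at a lower share than all genes in each comparison, a difference that was not tested. This order depended on the fit. Between the isoforms the lists were called at a higher share than all genes under the crossed replicate block, chosen after seeing the data.

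The pattern of CSNK2A1, the member with the smallest p, was most closely matched over the 6 libraries by PFDN2, DIMT1 and CLUAP1, with Pearson r of log2 CPM of 0.99 each among 13123 other genes. PFDN2, a prefoldin subunit, had 49.0, 63.6, 53.7, 70.5, 80.5 and 90.4 CPM in the libraries ordered as empty vector, 18 kDa and 22.5 kDa, so that its highest levels were those with the 22.5 kDa isoform as for CSNK2A1. These correlations describe 6 libraries that share a normalization and carry no test. Among the members themselves, r ranged from -0.97 (CSNK2B and KPNB1) to 0.77 (FIBP and CSNK2B), again over 6 libraries and as a description.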

How the data were processed

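mRNA of 6 T47D-YA libraries, 2 per group by the labels, was analysed. Values are whole-number counts per gene, indexed by Entrez identifier, deposited by the authors with no normalization. Per the submitters' processing notes, the build was hg19 and edgeR was used. Neither aligner, counter nor strand use is given in the sources used here. Counted totals were 5317687 to 6817324.

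Genes were filtered with filterByExpr by group (minimum count 10), scaled by TMM and tested in edgeR 4.0.16 (R 4.3.3) with the robust quasi-likelihood test, two-sided, all 6 libraries in 1 model without covariates, and Benjamini-Hochberg adjustment over 13124 genes. Alternatives included DESeq2 1.42.0, other filters and scalings, a replicate block, removal of the GC trend and leaving out each library. The fits were tested on simulated data. Levels per kilobase used GENCODE exon lengths. Symbols, neighbours and promoters came from RefSeq (GRCh38.p14), and 23308 of 23459 genes were named.

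Members and lists were chosen with earlier results of these data known. The text names all 8 members, FGF2, up to 4 list genes past the threshold by smallest p, the 2 best counted genes of a list where fewer than 2 passed, and the 3 genes most like the member with the smallest p. Some items that this rule names are not reported here. Markers were used to check the labelled cells.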

Additional observations from a re-analysis of the deposited data

How the results depend on the processing

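No member passed under DESeq2, library totals without TMM, no filter on low counts or the replicate block in any comparison. With only the 2 groups compared, 1 member passed with the 18 kDa isoform (beside 1101 of all 12906 genes tested there) and 1 with the 22.5 kDa isoform. With the GC trend removed 1 passed with the 22.5 kDa isoform, beside 2298 of all 13124 genes. With the GC trend removed and a replicate block 1 passed with the 18 kDa isoform (FIBP, adjusted p = 0.0266), beside 1854 of all genes. With the 22.5 kDa isoform that setting gave 2 (FIBP, 0.0135, and CEP57, 0.0468), beside 2408 of all genes. Leaving out each library in turn gave 0 to 1 members in each comparison. Leaving both first FGF2 libraries out, an alternative chosen after seeing the data, left 1 library in each FGF2 group. With the 18 kDa isoform the log2 fold changes were then 0.38 for API5, 0.55 for FIBP, -0.28 for CEP57 and 0.34 for CSNK2A1. Members past the threshold in that fit are not counted here, with either isoform. Where a group then has 1 library, it is assumed to vary like the other groups. Deviations of replicate 1 from replicate 2 did not run the same way in all groups. They correlated at -0.271 (empty vector and 18 kDa), 0.387 (empty vector and 22.5 kDa) and -0.413 (18 and 22.5 kDa). The labels do not say whether equal replicate numbers mark a shared culture or day. A crossed replicate block, added after seeing the data, gave 1, 2 and 1 members, with 2434, 2910 and 1208 of all genes.

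Counts over all genes moved by more than 1.5 times under these settings. With the 18 kDa isoform (1165) they were 1807 with the GC trend removed, 1854 with the GC trend and a replicate block, 617 to 1440 leaving out each library, and 1915 without both first FGF2 libraries. For the 22.5 kDa isoform (1431) the same settings gave 2298, 2408, 630 to 1964, and 2535. Between isoforms (207) they gave 326, 378, 37 to 733, and 354, and the count was 70 by library totals, 445 with no filter and 337 with the replicate block. Genes of the 9 lists past the threshold (4, 6 and 0) came to 2 by library totals, 9 with no filter, 7 with the replicate block, 19 with the crossed block, 11 with the GC trend removed, 12 with that and the block, 1 to 15 leaving out each library and 11 without both first FGF2 libraries for the 18 kDa isoform. With the 22.5 kDa isoform they were 12 with no filter, 13 with only the 2 groups, 11 with the block, 24 with the crossed block, 14 and 17 with the GC trend removed without and with the block, 2 to 14 leaving out each library and 20 without both first libraries. Between isoforms they were 2 by DESeq2, 6 with no filter, 4 with only the 2 groups, 4 with the block, 21 with the crossed block, 1 and 2 with the GC trend removed, 0 to 24 leaving out each library and 2 without both first libraries.

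Signs turned only for values that had not passed, in 30 of 336 members' alternatives. API5 with the 18 kDa isoform was 0.38 without both first libraries and -1.01 to 0.40 leaving out each library. CEP57, CSNK2A1 and NUP210 spanned -0.86 to 0.0365, -0.0152 to 0.40 and -0.56 to 0.0487 in the same way. UBTF was -0.0412 by library totals, -0.0121 and -0.0219 with the GC trend removed without and with the block, -0.24 without both first libraries, and -0.22 to 0.29 leaving out each library. With the 22.5 kDa isoform CSNK2B spanned -0.0855 to 0.43, and KPNB1 was 0.0129 with no filter, 0.0122 with only the 2 groups, and -0.32 to 0.26 leaving out each library. Between isoforms API5 was -0.0811 without both first libraries (-0.0024 to 1.37 leaving out each), FIBP 0.0777 and 0.0581 with the GC trend removed without and with the block and 0.33 without both first libraries (-0.44 to 0.26), and CSNK2B 0.39 (-0.47 to 0.13), KPNB1 -0.28 (-0.0662 to 0.49) and CEP57 (-0.70 to 0.34) likewise. The cause was not tested. Low counts limit CSNK2B, CEP57, RPS6KA5 and RPS6KA3, and 2 libraries a group leave 3 residual degrees of freedom.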

Other observations

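The genes beside the members on the chromosome, in RefSeq order, gave values that the comparisons above do not use. Around RPS6KA3 on chromosome X, 19 of the 24 nearest tested genes passed with the 22.5 kDa isoform, beside 10.9% of all genes, with a median log2 fold change of 1.69. With the 18 kDa isoform 6 of the 24 passed (beside 8.88%), with a median of 0.75, and between isoforms 3 (beside 1.58%), with a median of 0.83. PDHA1, a subunit of pyruvate dehydrogenase, had 447, 474, 995, 929, 1545 and 1085 counts in the libraries ordered as empty vector, 18 kDa and 22.5 kDa, and MBTPS2, a membrane protease, had 49, 50, 64, 131, 344 and 176. All FGF2 libraries were above both controls for these genes, which were named after their values were seen.

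CSNK2A1 lies near an end of chromosome 20, where 19 tested neighbours (C20orf96 to STK35) had medians of 0.57 with the 18 kDa isoform and 0.49 with the 22.5 kDa isoform, with 6 and 4 passing, beside 8.88% and 10.9% of all genes. CSNK2A1 itself was at 0.17 and 0.59. For the other members the medians of 24 neighbours lay between -0.30 and 0.00 with the 18 kDa isoform, and between -0.46 and 0.02 with the 22.5 kDa isoform. Of those 24, 1 to 4 passed with the 18 kDa isoform and 1 to 7 with the 22.5 kDa isoform, the 7 being around UBTF. The part of a shared chromosomal neighbourhood in the members' values was not tested.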
